A study of Danio rerio with 18 samples.

Results

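Zebrafish homozygous for the kif7co63 allele that had kept a straight spine at 6 weeks post fertilization (wpf) were compared with kif7co63/+ zebrafish of the same age across all genes. The comparison takes 6 of the 18 libraries of the series, 3 single fish per group, chosen by their labels alone. kif7 encodes a kinesin of the cilium that holds the Gli transcription factors of the hedgehog pathway in check. The co63 allele is a CRISPR-Cas9 indel in exon 3 that adds amino acids without shifting the reading frame, and the line is described as hypomorphic. Homozygotes came from incrossed homozygotes of a line kept by outcrossing to AB wild-type fish. The paper describes kif7co63/+ fish of an earlier generation made by a cross to AB, but not how the sequenced kif7co63/+ fish were bred. The sex of the fish and the time of day at sampling are not given in the sources used here. At 6 wpf each library is 1 whole fish, and the reference groups named below are 3 AB fish and 3 scoliotic homozygotes at 6 wpf, and pools of 20 larvae of AB, kif7co63/+ and kif7co63/co63 at 4 days post fertilization (dpf), 2 pools each. The question is what separates homozygotes from heterozygotes when no curve is present.

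Hedgehog ligands bind patched receptors, which releases smoothened and lets Gli factors switch on targets such as ptch1 and gli1. Skeletal growth uses this pathway in cartilage and bone, and spinal curvature in zebrafish has been tied to cilia, to the Reissner fiber of the central canal and to the notochord. A whole juvenile also holds muscle, gut, liver, skin, eye, blood and gonad, so a difference in bulk RNA may come from fewer cells of a type or from less RNA per cell, and the libraries cannot tell these apart.

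The files give reads per gene for 31901 genes. Totals ran from 49702168 to 69698533 reads in non-scoliotic fish and from 49434684 to 53862782 in heterozygotes, and 22800 genes passed the filter on low counts. Mitochondrially encoded genes took 4.62% to 5.79% of the reads in non-scoliotic fish and 3.96% to 4.63% in heterozygotes, and the 100 most abundant genes took 33.8% to 35.5% against 28.0% to 31.3%. Levels are given below as CPM (reads of a gene relative to all reads of the library, library sizes scaled by TMM over the 12 fish at 6 wpf), in the order of fish 1, 2 and 3. Log2 fold changes, positive where the non-scoliotic fish were higher, were fitted by edgeR (quasi-likelihood test), p-values were adjusted across the 22800 genes after Benjamini and Hochberg, and a gene was called at an adjusted p under 0.05. With 3 fish against 3, an exact permutation test of a single value cannot give a two-sided p under 0.1.

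Of the 22800 genes tested, 8348 (36.6%) were called, 4259 (18.7%) higher and 4089 (17.9%) lower in non-scoliotic fish. Counts of called list members below are to be read beside these 18.7% and 17.9%. Larger differences lay mostly on the lower side. A log2 fold change of at least 1 was found for 1349 called genes on the higher side and 2201 on the lower side, and one of at least 3 for 90 and 436. The CPM of the 2 groups did not overlap for 8307 of the called genes, among them every called gene named below with the values of each fish, and for 52.6% of all genes tested (25.4% higher and 27.2% lower). Without heterozygote 1 the count was 5296, and when libraries were scaled by total counts, which lowers the median log2 fold change of all genes from -0.03 to -0.14, 41.1% rather than 51.0% of the called genes were higher.

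kif7 itself, on chromosome 7 from 14393059 to 14446512 of GRCz11, did not separate the groups. It was at 24.98, 23.8 and 27.99 CPM in the non-scoliotic fish and at 22.7, 22.3 and 30.6 CPM in the heterozygotes (log2 fold change 0.02, SE 0.15, edgeR adjusted p = 0.93), with a sign that turned with total-count scaling and when non-scoliotic fish 3, heterozygote 1 or heterozygote 2 was left out. AB fish had 39.3, 40.7 and 45.6 CPM, above all 6 fish of the comparison. The indel lies in an exon and does not remove the transcript, so the read count does not check the genotype.

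Several hedgehog components were higher in non-scoliotic fish, while the standard targets ptch1 and gli1 were not called by edgeR. Of the pathway list, 16 of 39 tested members were higher and 1 lower, and the median log2 fold change over the 39 was 0.41. The transducer smo was at 49.7, 52.8 and 57.996 CPM in the non-scoliotic fish and at 31.8, 30.8 and 30.6 CPM in the heterozygotes (log2 fold change 0.78, SE 0.10, edgeR adjusted p = 0.0016). gli2a, a Gli activator, was at 27.8, 30.9 and 36.1 CPM in the non-scoliotic fish and at 14.97, 16.5 and 16.8 CPM in the heterozygotes (log2 fold change 0.97, SE 0.13, edgeR adjusted p = 0.0018). For both genes the 3 non-scoliotic fish lay above every heterozygote and every AB fish (at most 32.0 CPM for smo and 17.6 for gli2a). Over the list, scoliotic homozygotes resembled non-scoliotic fish, with summed CPM of 1400, 1458 and 1475 against 1360, 1382 and 1490. hhatlb, related to the hedgehog acyltransferase, was at 49.996, 50.2 and 49.4 CPM in the non-scoliotic fish and at 27.5, 28.2 and 26.8 CPM in the heterozygotes (log2 fold change 0.86, SE 0.09, edgeR adjusted p = 0.00075). The target and receptor ptch1 was at 6.35, 5.26 and 7.55 CPM in the non-scoliotic fish and at 4.85, 4.24 and 2.19 CPM in the heterozygotes, which did not overlap but was not called (log2 fold change 0.76, SE 0.31, edgeR adjusted p = 0.095). Of the alternatives run, DESeq2 alone called ptch1 (DESeq2 adjusted p = 0.046), so its missing call in edgeR does not set it apart from smo. AB fish had 0.131, 0.257 and 0.0274 CPM of ptch1. The target gli1 was at 19.5, 23.3 and 26.7 CPM in the non-scoliotic fish and at 20.8, 19.6 and 21.4 CPM in the heterozygotes and overlapped (log2 fold change 0.17, SE 0.13, edgeR adjusted p = 0.36). dzip1, known from zebrafish work on Gli regulation, was at 1.24, 1.695 and 1.83 CPM in the non-scoliotic fish and at 0.0391, 0 and 0.0363 CPM in the heterozygotes, where every heterozygote was at or under 3 reads, so the level was at least 28.1-fold higher by that floor of 3 reads per library. ulk3, a kinase that acts on Gli factors, was the only called member on the lower side (log2 fold change -0.69, SE 0.22, edgeR adjusted p = 0.046), and its call was lost when low counts were not filtered, with the replicate block (edgeR adjusted p = 0.058) and without any single fish other than non-scoliotic fish 1.

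Cilium genes moved little as a group. Of the intraflagellar transport and Bardet-Biedl syndrome genes, 2 of 34 tested members were higher and 4 lower, and the median log2 fold change over the 34 was -0.05. The kinesin-2 subunit kif3b was at 24.6, 23.6 and 25.6 CPM in the non-scoliotic fish and at 20.4, 17.03 and 17.4 CPM in the heterozygotes (log2 fold change 0.43, SE 0.11, edgeR adjusted p = 0.023). The chaperonin-like bbs12 was at 2.89, 2.55 and 2.76 CPM in the non-scoliotic fish and at 6.08, 5.38 and 5.56 CPM in the heterozygotes (log2 fold change -1.05, SE 0.16, edgeR adjusted p = 0.0035). Of the motile cilium genes, 1 of 73 tested members were higher and 4 lower, and the median log2 fold change over the 73 was -0.19 (2 lower without heterozygotes 1 or 2 or non-scoliotic fish 1), with cfap20 (-0.84) and enkur (-1.11) among the lower. Of the Reissner fiber and urotensin genes, 1 of 11 tested members were higher and 0 lower (in edgeR, with 0 lower at an unadjusted p under 0.05 and 0 lower in DESeq2), and the median log2 fold change over the 11 was 0.05. The called one was clu, a secreted chaperone, at 81.8, 86.9 and 82.4 CPM in the non-scoliotic fish and at 62.04, 71.9 and 57.5 CPM in the heterozygotes (log2 fold change 0.39, SE 0.12, edgeR adjusted p = 0.037). Each of these lists had a smaller share called than the 36.6% of all genes. The calls of clu and kif3b were lost with total-count scaling. That of clu held only without heterozygote 2 among the 6 fits that left out 1 fish, and that of kif3b was lost without non-scoliotic fish 3 or heterozygotes 2 or 3.

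Circadian clock genes differed in both directions. The clock is a loop in which Clock and Arntl (Bmal) switch on per, cry, nr1d and dbp genes, whose products feed back on the loop through the day. Of the clock list, 9 of 47 tested members were higher and 23 lower, and the median log2 fold change over the 47 was -0.31, so 32 of 47 were called, and leaving out 1 fish at a time left 9 to 10 higher and 22 to 23 lower. nr1d1, the repressor Rev-erb alpha, was at 1.17, 0.981 and 1.305 CPM in the non-scoliotic fish and at 155, 141 and 146 CPM in the heterozygotes (log2 fold change -7.00, SE 0.16, edgeR adjusted p = 8.3e-06), the smallest p of all genes on the lower side. per3, a period repressor, was at 31.7, 35.9 and 30.8 CPM in the non-scoliotic fish and at 349.8, 366 and 356 CPM in the heterozygotes (log2 fold change -3.45, SE 0.12, edgeR adjusted p = 3.6e-05). per1b, named after its values were seen, was at 22.1, 21.5 and 15.5 CPM in the non-scoliotic fish and at 154, 143 and 159.5 CPM in the heterozygotes (log2 fold change -2.95, SE 0.17, edgeR adjusted p = 0.00015). All 3 heterozygotes were several times above every non-scoliotic fish for these genes, and the AB fish, at 0.849, 0.8498 and 1.22 CPM for nr1d1 and 40.01, 24.3 and 33.7 for per3, sat by the non-scoliotic fish. nr1d2b (-2.31), dbpa (-2.18), per1a (-4.51) and ciarta, a repressor of the loop named after its values were seen (-4.58), were lower too.

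Other members were higher. rorcb, of the ROR activators that compete with Rev-erb, was at 243, 267 and 237 CPM in the non-scoliotic fish and at 16.1, 19.7 and 16.97 CPM in the heterozygotes (log2 fold change 3.82, SE 0.14, edgeR adjusted p = 3.6e-05). nfil3-5, a repressor that opposes Dbp, was at 25.9, 26.9 and 27.5 CPM in the non-scoliotic fish and at 1.88, 2.41 and 2.43 CPM in the heterozygotes (log2 fold change 3.58, SE 0.14, edgeR adjusted p = 5.6e-05). clocka was at 21.8, 23.1 and 19.03 CPM in the non-scoliotic fish and at 5.55, 5.65 and 5.13 CPM in the heterozygotes (log2 fold change 1.97, SE 0.13, edgeR adjusted p = 0.00019). cry1bb was at 153, 147 and 141 CPM in the non-scoliotic fish and at 39.8, 37.98 and 38.6 CPM in the heterozygotes (log2 fold change 1.92, SE 0.10, edgeR adjusted p = 0.00012). AB fish were between the groups for these genes, with 128, 131 and 142 CPM for rorcb and 11.3, 13.1 and 14.8 for clocka. In these 4 genes the fish within each group differed by far less than the groups did. The time of day at which each group was sampled is unknown here, and its part in the other differences was not tested.

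**Figure D1:**
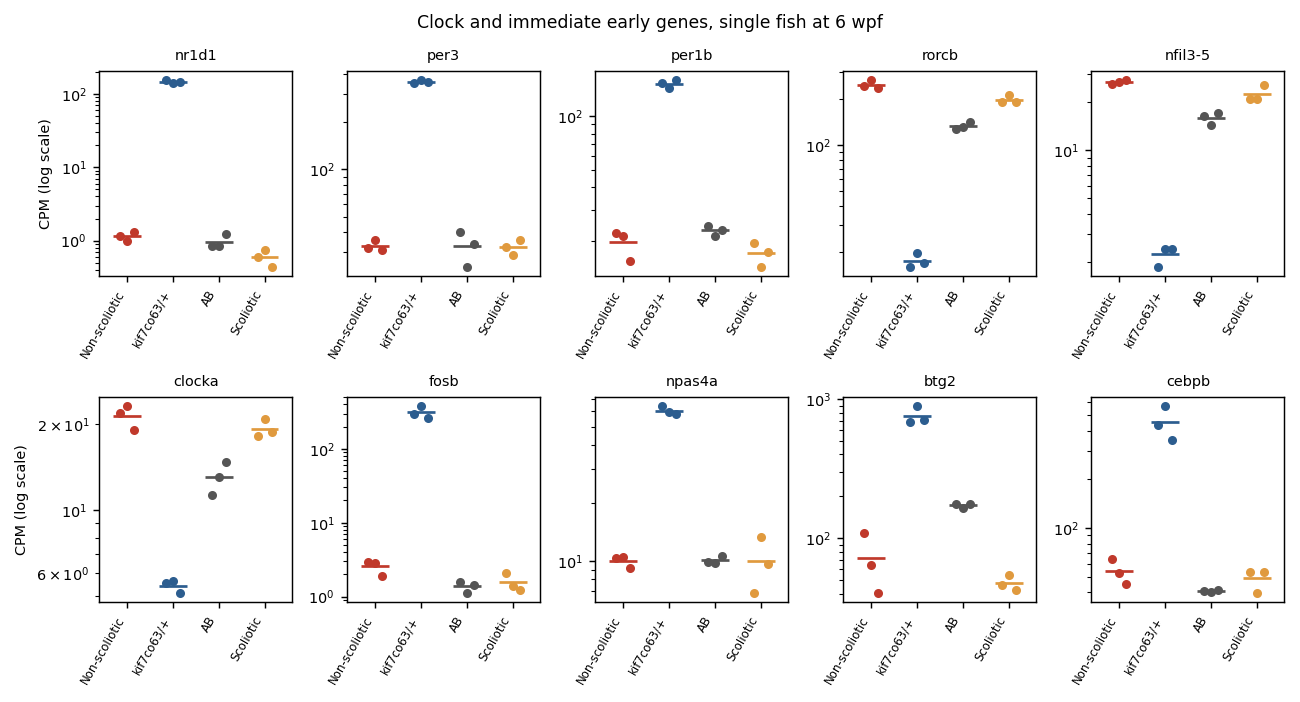
CPM (log scale) of 6 clock genes and 4 immediate early or stress genes in single fish at 6 wpf, with 1 point per fish and a bar at the mean of each group of 3. For nr1d1, per3, fosb and npas4a the heterozygotes stand above the other 3 groups, and for rorcb and clocka they stand below them.

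Immediate early genes, which cells switch on within minutes of a stimulus, were lower in non-scoliotic fish. fosb, a subunit of AP-1, was at 2.96, 2.84 and 1.87 CPM in the non-scoliotic fish and at 293, 378 and 265 CPM in the heterozygotes (log2 fold change -6.93, SE 0.28, edgeR adjusted p = 5.6e-05). npas4a, induced by neuronal activity, was at 10.3, 10.4 and 9.22 CPM in the non-scoliotic fish and at 63.8, 59.9 and 58.1 CPM in the heterozygotes (log2 fold change -2.60, SE 0.11, edgeR adjusted p = 5.7e-05). btg2, an antiproliferative gene, was at 109, 64.7 and 40.5 CPM in the non-scoliotic fish and at 687, 889 and 704 CPM in the heterozygotes (log2 fold change -3.41, SE 0.37, edgeR adjusted p = 0.00097). The acute-phase factor cebpb was at 63.8, 52.5 and 45.2 CPM in the non-scoliotic fish and at 435, 566 and 349 CPM in the heterozygotes (log2 fold change -3.07, SE 0.23, edgeR adjusted p = 0.00031). AB fish had 1.58, 1.12 and 1.45 CPM of fosb and 9.84, 9.75 and 10.6 of npas4a, so that the heterozygotes stood apart from both other groups. A list of such genes, written after some of these values were seen, was summarised as a description: 0 of 36 tested members were higher and 32 lower (in edgeR, with 0 higher at an unadjusted p under 0.05 and 0 higher in DESeq2), and the median log2 fold change over the 36 was -2.30. Its summed CPM was 1164, 979 and 852 in non-scoliotic fish against 5374, 6785 and 4792 in heterozygotes. That list supports nothing by itself, since its members were picked with these values known.

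Genes of the fasting and glucocorticoid response did not move one way. Of this list, 12 of 58 tested members were higher and 20 lower, and the median log2 fold change over the 58 was -0.19. igfbp1a, a binding protein that rises in starvation and hypoxia, was at 25.4, 19.4 and 20.2 CPM in the non-scoliotic fish and at 158, 227 and 142 CPM in the heterozygotes (log2 fold change -3.02, SE 0.22, edgeR adjusted p = 0.0003). igfbp1b was at 2.03, 4.53 and 2.76 CPM in the non-scoliotic fish and at 15.3, 21.4 and 22.7 CPM in the heterozygotes (log2 fold change -2.67, SE 0.32, edgeR adjusted p = 0.0013). Both enzymes of gluconeogenesis named here, chosen after their values were seen, were lower as well, with g6pca.2 at 46.9, 100.3 and 87.01 CPM in the non-scoliotic fish and at 494, 526 and 424 CPM in the heterozygotes (log2 fold change -2.63, SE 0.29, edgeR adjusted p = 0.00099) and pck1 at 158, 279 and 194 CPM in the non-scoliotic fish and at 461, 548 and 456 CPM in the heterozygotes (log2 fold change -1.22, SE 0.22, edgeR adjusted p = 0.0059). On the higher side, foxo3b, a forkhead factor of the nutrient response, was at 163, 223 and 185 CPM in the non-scoliotic fish and at 56.8, 52.2 and 53.2 CPM in the heterozygotes (log2 fold change 1.81, SE 0.14, edgeR adjusted p = 0.00038). sesn3, a Sestrin, had a log2 fold change of 0.89.

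For the list of cholesterol and fatty acid synthesis, 22 of 45 tested members were higher and 4 lower, and the median log2 fold change over the 45 was 0.83. The median was 0.51 without non-scoliotic fish 3, and the lower count 2 without heterozygote 1. scd, which makes monounsaturated fatty acids, was at 369, 342 and 308 CPM in the non-scoliotic fish and at 21.4, 22.3 and 22.8 CPM in the heterozygotes (log2 fold change 3.94, SE 0.13, edgeR adjusted p = 2.8e-05). The elongase elovl6 was at 94.9, 105 and 91.8 CPM in the non-scoliotic fish and at 6.72, 7.96 and 7.36 CPM in the heterozygotes (log2 fold change 3.73, SE 0.12, edgeR adjusted p = 2.8e-05). acaca, the acetyl-CoA carboxylase that commits carbon to fatty acids, was at 111, 113 and 180.2 CPM in the non-scoliotic fish and at 18.04, 17.8 and 18.2 CPM in the heterozygotes (log2 fold change 2.90, SE 0.21, edgeR adjusted p = 0.0003). fasn, the synthase, named after its values were seen, was at 283, 219 and 262 CPM in the non-scoliotic fish and at 73.4, 62.4 and 88.04 CPM in the heterozygotes (log2 fold change 1.77, SE 0.17, edgeR adjusted p = 0.00064). The 3 non-scoliotic fish were above every heterozygote and every AB fish for all 4, with AB fish at 39.3, 37.5 and 43.9 CPM for scd. The scoliotic homozygotes were spread, at 333, 48.4 and 229 CPM for scd. Lower members included cd36, a fatty acid transporter (-0.79), and acacb (-0.56), whose call was lost without heterozygote 1. plin2, which coats lipid droplets, was at or under 3 reads in each non-scoliotic fish and 5.88, 6.16 and 1.74 CPM in heterozygotes, at least 84.4-fold lower. AB fish had 1, 0 and 0 reads and scoliotic fish 0, 1 and 352, so the heterozygotes and scoliotic fish 3 stood apart.

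For the proteasome, 36 of 52 tested members were higher and 2 lower, and the median log2 fold change over the 52 was 0.74. The lid subunit psmd11b was at 68.7, 67.5 and 85.03 CPM in the non-scoliotic fish and at 22.7, 22.9 and 22.4 CPM in the heterozygotes (log2 fold change 1.70, SE 0.12, edgeR adjusted p = 0.00026). psme4b, an activator of the core particle, was at 94.96, 104 and 104 CPM in the non-scoliotic fish and at 37.1, 39.2 and 41.5 CPM in the heterozygotes (log2 fold change 1.36, SE 0.10, edgeR adjusted p = 0.00031). Here AB fish were close to non-scoliotic fish, at 57.5, 62.7 and 56.3 CPM for psmd11b, and the heterozygotes were low. For chaperones, 23 of 68 tested members were higher and 5 lower, and the median log2 fold change over the 68 was 0.28, so that 40 of 68 were not called. Without non-scoliotic fish 3 the median was 0.19. hsp90aa1.1, the muscle form of Hsp90, was at 624, 581 and 477 CPM in the non-scoliotic fish and at 71.9, 71.9 and 80.3 CPM in the heterozygotes (log2 fold change 2.91, SE 0.15, edgeR adjusted p = 0.00011). unc45b, its partner in folding myosin, was at 127, 146 and 176 CPM in the non-scoliotic fish and at 27.9, 36.7 and 32.9 CPM in the heterozygotes (log2 fold change 2.199, SE 0.17, edgeR adjusted p = 0.00032). hsf2, a heat shock factor, was lower, at 7.97, 7.74 and 6.198 CPM in the non-scoliotic fish and at 49.6, 45.1 and 51.9 CPM in the heterozygotes (log2 fold change -2.74, SE 0.14, edgeR adjusted p = 0.0001). The summed CPM of the chaperone list was 10417, 9671 and 11509.7 in non-scoliotic fish, 7846, 7211 and 8585 in heterozygotes and 10669, 11194 and 10082 in AB fish.

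Cytosolic ribosomal proteins went the other way. Of these, 2 of 78 tested members were higher and 38 lower, and the median log2 fold change over the 78 was -0.38. Their summed CPM was 54978, 52699 and 63039 in non-scoliotic fish and 72144, 79907 and 66470 in heterozygotes. AB fish, at 52593, 59076 and 57249, were near the non-scoliotic fish, and the heterozygotes were high. rps23 was at 544, 591 and 543 CPM in the non-scoliotic fish and at 927, 1042 and 857 CPM in the heterozygotes (log2 fold change -0.75, SE 0.11, edgeR adjusted p = 0.0030). The called members on the higher side were rps13 (log2 fold change 0.75, SE 0.14, edgeR adjusted p = 0.0061) and rpl12 (log2 fold change 0.69, SE 0.20, edgeR adjusted p = 0.036). rpl12 lost its call with total-count scaling, in the fit of all 12 fish, and without non-scoliotic fish 1 or 2 or heterozygotes 1 or 3. The count of lower members fell from 38 to 15 without heterozygote 1, to 23 without heterozygote 2, and to 25 and 24 without non-scoliotic fish 1 and 2. Of the mitochondrially encoded subunits of oxidative phosphorylation, 8 of 13 tested members were higher and 0 lower (in edgeR, with 0 lower at an unadjusted p under 0.05 and 0 lower in DESeq2), and the median log2 fold change over the 13 was 0.52. An example is mt-nd4 of complex I, at 2640.0, 3082 and 3553 CPM in the non-scoliotic fish and at 1592, 1667 and 1522 CPM in the heterozygotes (log2 fold change 0.95, SE 0.12, edgeR adjusted p = 0.0017). The nuclear subunits were near the 18.7% and 17.9% of all genes: 20 of 98 tested members were higher and 15 lower, and the median log2 fold change over the 98 was -0.15, with 11 higher without non-scoliotic fish 3 or without heterozygote 1.

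The extracellular matrix of the skeleton and of connective tissue was higher in non-scoliotic fish. For collagens, 39 of 53 tested members were higher and 0 lower (in edgeR, with 0 lower at an unadjusted p under 0.05 and 0 lower in DESeq2), and the median log2 fold change over the 53 was 0.95, against 18.7% of all genes on the higher side. col1a2, a chain of the main collagen of bone and skin, was at 7151, 7463 and 6843 CPM in the non-scoliotic fish and at 2471, 2844 and 2881 CPM in the heterozygotes (log2 fold change 1.39, SE 0.09, edgeR adjusted p = 0.00021). col1a1b was at 6916, 7536 and 6540.2 CPM in the non-scoliotic fish and at 2519, 3002 and 3143 CPM in the heterozygotes (log2 fold change 1.28, SE 0.11, edgeR adjusted p = 0.00048). col11a2, a fibril collagen of cartilage, was at 447, 430.4 and 531 CPM in the non-scoliotic fish and at 125, 130.1 and 135 CPM in the heterozygotes (log2 fold change 1.85, SE 0.13, edgeR adjusted p = 0.00023). col5a1 was at 937, 1040.4 and 1057 CPM in the non-scoliotic fish and at 357, 398 and 414 CPM in the heterozygotes (log2 fold change 1.37, SE 0.11, edgeR adjusted p = 0.00039). The groups did not overlap for any of these 4. AB fish had 2659.5, 2552 and 2355 CPM of col1a2, close to the heterozygotes, and 237, 181 and 202 CPM of col11a2, between the groups. Summed over the list, scoliotic homozygotes had 28030, 25472 and 35840 CPM, non-scoliotic fish 32286, 34602 and 31768 and heterozygotes 12526, 14902 and 14034. Leaving out 1 fish at a time left 35 to 39 collagen genes higher, with a median log2 fold change of 0.89 to 1.04.

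Cartilage genes showed the same direction. Of the cartilage list, 24 of 32 tested members were higher and 0 lower (in edgeR, with 0 lower at an unadjusted p under 0.05 and 0 lower in DESeq2), and the median log2 fold change over the 32 was 0.82, and 9 of the list are also collagens. Summed CPM was 4011, 5425 and 4398 in scoliotic homozygotes, 3831, 3670 and 4579 in non-scoliotic fish and 1376, 1564 and 1537 in heterozygotes. acanb, the core of aggrecan, was at 21.3, 18.3 and 28.7 CPM in the non-scoliotic fish and at 5.32, 5.21 and 4.77 CPM in the heterozygotes (log2 fold change 2.16, SE 0.18, edgeR adjusted p = 0.00048). matn1, matrilin of cartilage, was at 432, 386 and 522 CPM in the non-scoliotic fish and at 84.1, 122.7 and 104 CPM in the heterozygotes (log2 fold change 2.11, SE 0.19, edgeR adjusted p = 0.00051). col2a1a, the type II collagen of cartilage and notochord sheath, named after its values were seen, was at 239, 299 and 449 CPM in the non-scoliotic fish and at 68.7, 79.7 and 95.8 CPM in the heterozygotes (log2 fold change 2.01, SE 0.25, edgeR adjusted p = 0.0016). sox9a, the transcription factor of chondrocytes, named after its values were seen, was not called and overlapped, at 32.98, 33.7 and 39.4 CPM in the non-scoliotic fish and at 27.9, 35.2 and 29.96 CPM in the heterozygotes (log2 fold change 0.19, SE 0.13, edgeR adjusted p = 0.29).

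For bone formation and resorption, 24 of 43 tested members were higher and 4 lower, and the median log2 fold change over the 43 was 0.51. Of the list, 5 are also collagens, among them col1a2, col1a1b and col10a1a, so its sum is not separate from the collagen sum. Summed CPM was 25217, 20289 and 32079 in scoliotic homozygotes, 29483, 32233 and 27543 in non-scoliotic fish and 13207, 15848 and 14112 in heterozygotes. mmp14b, a membrane metalloprotease that cleaves collagen, was at 126, 130.5 and 139 CPM in the non-scoliotic fish and at 29.2, 36.3 and 31.4 CPM in the heterozygotes (log2 fold change 2.02, SE 0.12, edgeR adjusted p = 0.00016). bmp1a, which trims procollagen, was at 104, 112 and 111 CPM in the non-scoliotic fish and at 42.7, 44.4 and 51.7 CPM in the heterozygotes (log2 fold change 1.23, SE 0.11, edgeR adjusted p = 0.00058). sp7, the factor that osteoblasts need, was at 61.6, 69.4 and 65.7 CPM in the non-scoliotic fish and at 36.7, 38.6 and 33.8 CPM in the heterozygotes (log2 fold change 0.85, SE 0.10, edgeR adjusted p = 0.0014). col10a1a, a collagen of zebrafish bone and of growing cartilage, was at 3879, 4154 and 4104 CPM in the non-scoliotic fish and at 1964, 2384 and 1857 CPM in the heterozygotes (log2 fold change 0.97, SE 0.11, edgeR adjusted p = 0.0012), both named after their values were seen. AB fish had only 2.92, 2.68 and 0.178 CPM of mmp14b, below the heterozygotes. The 4 lower members were acp5b, the tartrate-resistant phosphatase of osteoclasts (-1.56), tnfrsf11b, a decoy that holds osteoclasts back (-1.13), phex, a peptidase of mineralization (-1.14), and sost, an inhibitor of Wnt signals to bone (-0.85). The sost call was lost in a fit of all 12 fish at 6 wpf and without heterozygote 2. In the notochord and caveola list, 9 of 21 tested members were higher and 1 lower, and the median log2 fold change over the 21 was 0.27, with lamb1a, a laminin of the notochord basement membrane, at 112, 121 and 140.0 CPM in the non-scoliotic fish and at 45.8, 47.5 and 56.7 CPM in the heterozygotes (log2 fold change 1.31, SE 0.14, edgeR adjusted p = 0.00089).

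**Figure D2:**
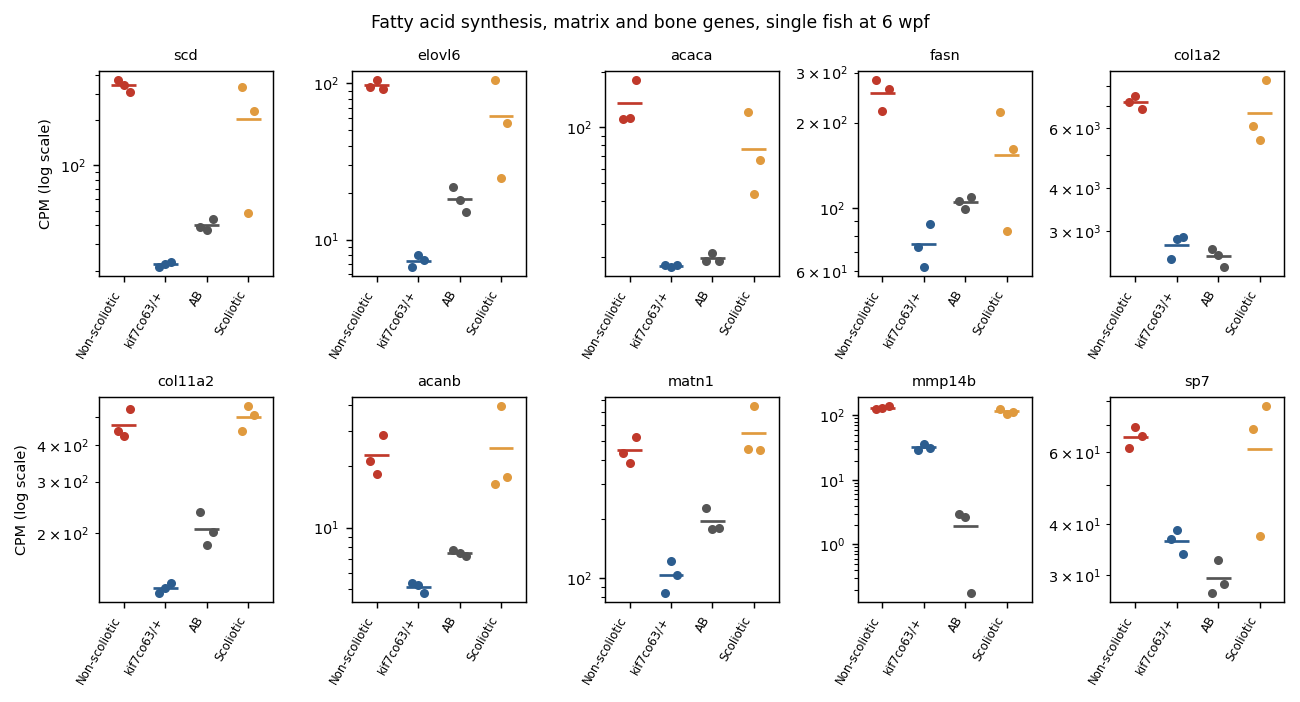
CPM (log scale) of 4 fatty acid synthesis genes and 6 matrix, bone and cartilage genes in single fish at 6 wpf, with 1 point per fish and a bar at the mean of each group of 3. The 3 non-scoliotic fish lie above the 3 heterozygotes for each of the 10 genes, and AB fish lie near the heterozygotes for col1a2.

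Among the fast skeletal muscle genes, 26 of 50 tested members were higher and 5 lower, and the median log2 fold change over the 50 was 0.70. That median was 0.39 without non-scoliotic fish 3, 0.41 with DESeq2 and 0.40 without a filter on low counts. Summed CPM was 115516, 107318 and 145428 in scoliotic homozygotes, 132165, 134303 and 129598 in non-scoliotic fish and 94080, 95330 and 83463 in heterozygotes. myha, a fast myosin heavy chain, was at 14989.8, 15203 and 13452 CPM in the non-scoliotic fish and at 4721, 4461 and 4353 CPM in the heterozygotes (log2 fold change 1.69, SE 0.08, edgeR adjusted p = 9.1e-05). actc1b, a muscle actin, was at 30946, 29762 and 25608 CPM in the non-scoliotic fish and at 15950.2, 15965 and 16463 CPM in the heterozygotes (log2 fold change 0.83, SE 0.08, edgeR adjusted p = 0.00071). myoz1a, which anchors calcineurin at the Z-disc, was at 331, 331 and 325 CPM in the non-scoliotic fish and at 126, 140.2 and 114 CPM in the heterozygotes (log2 fold change 1.38, SE 0.12, edgeR adjusted p = 0.00051). Lower members included pvalb4, a calcium-buffering parvalbumin, at 1376, 1291 and 1151 CPM in the non-scoliotic fish and at 2302, 2630.4 and 1777 CPM in the heterozygotes (log2 fold change -0.81, SE 0.16, edgeR adjusted p = 0.0078). gapdh (-0.76). Of slow and cardiac muscle genes, 17 of 36 tested members were higher and 1 lower, and the median log2 fold change over the 36 was 0.40, and the higher count was 10 without heterozygote 1. smyhc1, a slow myosin heavy chain, was at 56.7, 61.8 and 69.3 CPM in the non-scoliotic fish and at 15.6, 12.6 and 18.8 CPM in the heterozygotes (log2 fold change 2.00, SE 0.17, edgeR adjusted p = 0.00046). Myosin heavy chains are near-identical copies, and reads may have been split among them by the authors' counting.

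Erythrocyte genes were higher, with 17 of 30 tested members higher and 1 lower, and a median log2 fold change of 0.84. Summed CPM was 6173, 5256 and 6078 in scoliotic homozygotes, 5721, 6687 and 6554 in non-scoliotic fish and 3246, 3993 and 2717 in heterozygotes. slc4a1a, the anion exchanger of red cells, was at 292, 281 and 233 CPM in the non-scoliotic fish and at 65.6, 86.9 and 71.1 CPM in the heterozygotes (log2 fold change 1.85, SE 0.16, edgeR adjusted p = 0.00048). sptb, erythroid spectrin, was at 145, 146 and 166 CPM in the non-scoliotic fish and at 67.5, 66.9 and 58.4 CPM in the heterozygotes (log2 fold change 1.25, SE 0.12, edgeR adjusted p = 0.00061). klf17, a Krueppel-like factor, was the lower member (-0.60). Its call was lost without non-scoliotic fish 3 or any 1 heterozygote, and 4 members were lower without non-scoliotic fish 1. Among white cells, of the neutrophil and macrophage genes 19 of 57 tested members were higher and 9 lower, and the median log2 fold change over the 57 was 0.36, and the higher count was 11 without heterozygote 1. Their shares were 33.3% and 15.8%, against 18.7% and 17.9% of all genes. mpeg1.1, a macrophage perforin, was at 7.58, 8.51 and 4.63 CPM in the non-scoliotic fish and at 1.21, 1.55 and 1.83 CPM in the heterozygotes (log2 fold change 2.17, SE 0.29, edgeR adjusted p = 0.0020). The neutrophil chemokine cxcl8b.1 was lower, at 3.08, 1.11 and 1.07 CPM in the non-scoliotic fish and at 16.5, 24.2 and 13.7 CPM in the heterozygotes (log2 fold change -3.36, SE 0.47, edgeR adjusted p = 0.0023). Of the lymphocyte genes, 14 of 45 tested members were higher and 4 lower, and the median log2 fold change over the 45 was 0.34, with tcf7 of the T lineage at 0.94. The higher lymphocyte count was 7 and 9 without heterozygotes 1 and 3, and 9 and 8 without non-scoliotic fish 1 and 2. With all fish the lymphocyte shares were 31.1% higher and 8.89% lower.

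Oocyte genes had low and widely spread levels in non-scoliotic fish, with a share called lower near the 17.9% of all genes. Of the oocyte genes, 0 of 27 tested members were higher and 5 lower (in edgeR, with 0 higher at an unadjusted p under 0.05 and 0 higher in DESeq2), and the median log2 fold change over the 27 was -3.07. The summed CPM of the oocyte list was 2082, 28.6 and 426 in non-scoliotic fish, 6307, 4807 and 8859 in heterozygotes, 9147, 9864 and 10186 in AB fish and 941, 34.6 and 106 in scoliotic homozygotes. Of 2 vitellogenins tested, 1 was higher, and 0 without non-scoliotic fish 1 or heterozygotes 2 or 3. The highest non-scoliotic fish by oocyte sum was thus below the lowest heterozygote. gdf9, an oocyte growth factor, was at 1.93, 0 and 0.478 CPM in the non-scoliotic fish and at 10.4, 5.21 and 15.01 CPM in the heterozygotes (log2 fold change -3.63, SE 1.09, edgeR adjusted p = 0.037), a call that was lost with DESeq2 and without non-scoliotic fish 3 or any 1 heterozygote. The germ cell list gave 1 of 41 tested members higher and 13 lower, and a median log2 fold change of -1.77. henmt1, which protects piRNAs, was at 3.64, 2.07 and 2.15 CPM in the non-scoliotic fish and at 9.301, 7.88 and 15.95 CPM in the heterozygotes (log2 fold change -2.07, SE 0.35, edgeR adjusted p = 0.0045). These counts rest on single fish. The count of lower oocyte genes was 16 and 20 without non-scoliotic fish 1 and 2, 1 without heterozygote 2, and 0 without non-scoliotic fish 3 or heterozygotes 1 or 3. That of lower germ cell genes was 22 without non-scoliotic fish 1, 6 without non-scoliotic fish 3, and 2, 5 and 4 without heterozygotes 1, 2 and 3.

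**Figure D3:**
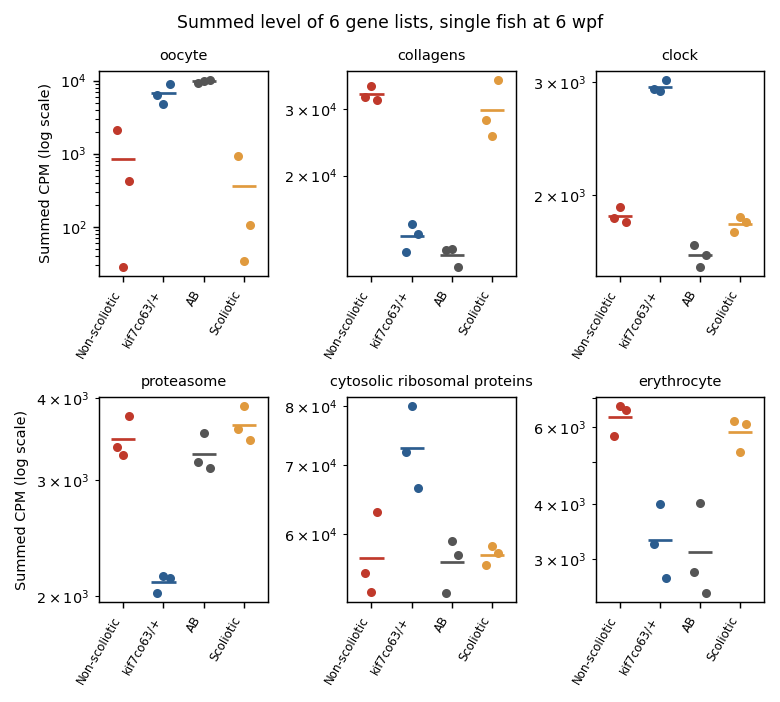
Summed CPM (log scale) of the oocyte, collagen, clock, proteasome, cytosolic ribosomal protein and erythrocyte lists in each of the 12 fish at 6 wpf, with 1 point per fish. Oocyte sums span 28.6 to 2082 CPM in non-scoliotic fish, while collagen sums of the 3 non-scoliotic fish lie close together and above the heterozygotes.

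Cell cycle genes differed in both directions. Of the DNA replication and mitosis list, 27 of 114 tested members were higher and 30 lower, and the median log2 fold change over the 114 was -0.06. These are 23.7% and 26.3%, not far from the 18.7% and 17.9% of all genes. mcm3 of the replicative helicase was at 78.2, 75.8 and 99.2 CPM in the non-scoliotic fish and at 15.9, 24.02 and 19.7 CPM in the heterozygotes (log2 fold change 2.08, SE 0.19, edgeR adjusted p = 0.00051). ccne2, a cyclin of S-phase entry, was at 23.3, 19.5 and 22.4 CPM in the non-scoliotic fish and at 3.44, 5.83 and 4.17 CPM in the heterozygotes (log2 fold change 2.28, SE 0.21, edgeR adjusted p = 0.00057). Lower were mad2l1, of the spindle checkpoint (-1.19), and gmnn, geminin, an inhibitor of origin licensing named after its values were seen, at 8.397, 2.59 and 3.31 CPM in the non-scoliotic fish and at 25.97, 28.7 and 39.3 CPM in the heterozygotes (log2 fold change -2.71, SE 0.45, edgeR adjusted p = 0.0044). The oocyte sums above were lower in non-scoliotic fish too, and no relation between them and the cell cycle genes was tested. The lower count was 16 without non-scoliotic fish 3 and 18 without heterozygote 3, and the higher count 17 without non-scoliotic fish 3.

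Gut, liver and pancreas were mixed. Intestinal genes gave 11 of 43 tested members higher and 17 lower, and a median log2 fold change of -0.44. Their summed CPM was 7240, 7866 and 9049 in non-scoliotic fish and 11201, 11427 and 10408 in heterozygotes. AB fish, at 8229, 8467 and 7679, were near the non-scoliotic fish. slc5a1, the glucose transporter of the brush border, was at 110.2, 106 and 117 CPM in the non-scoliotic fish and at 283, 290.0 and 269 CPM in the heterozygotes (log2 fold change -1.34, SE 0.11, edgeR adjusted p = 0.00039). chia.3, an acidic chitinase, was at 558, 667 and 822 CPM in the non-scoliotic fish and at 2405, 2373 and 2261 CPM in the heterozygotes (log2 fold change -1.78, SE 0.15, edgeR adjusted p = 0.00045). vil1, villin of the microvillus, was higher, at 687, 647 and 842 CPM in the non-scoliotic fish and at 289.8, 336 and 314 CPM in the heterozygotes (log2 fold change 1.21, SE 0.14, edgeR adjusted p = 0.0011). Liver and plasma protein genes gave 29 of 83 tested members higher and 12 lower (34.9% and 14.5%, against 18.7% and 17.9% of all genes), and a median log2 fold change of 0.19. apobb.1, an apolipoprotein B, was at 5174, 6284 and 6449 CPM in the non-scoliotic fish and at 2656, 2742 and 2789 CPM in the heterozygotes (log2 fold change 1.13, SE 0.10, edgeR adjusted p = 0.00054). f3b, tissue factor, was lower, at 6.72, 6.48 and 5.91 CPM in the non-scoliotic fish and at 51.9, 56.9 and 39.04 CPM in the heterozygotes (log2 fold change -2.95, SE 0.17, edgeR adjusted p = 0.00015). The higher liver count was 15 without heterozygote 1, 19 without heterozygote 3, and 19 and 17 without non-scoliotic fish 1 and 3 respectively. For the exocrine pancreas, 7 of 29 tested members were higher and 5 lower, and the median log2 fold change over the 29 was 0.18, and the higher count was 3 without heterozygote 1 or 3 and 4 without non-scoliotic fish 2. The pancreas shares, 24.1% and 17.2%, were near the 18.7% and 17.9% of all genes.

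Eye genes differed in both directions. Of the lens crystallins, 1 of 54 tested members were higher and 22 lower, and the median log2 fold change over the 54 was -0.77. Their summed CPM was 5028, 4294 and 5870 in non-scoliotic fish and 7513, 7892 and 8092 in heterozygotes. AB fish, at 5047, 4543 and 5379, were near the non-scoliotic fish. crygm5, a gamma crystallin, was at 5.92, 7.57 and 8.98 CPM in the non-scoliotic fish and at 43.4, 35.03 and 33.2 CPM in the heterozygotes (log2 fold change -2.32, SE 0.19, edgeR adjusted p = 0.00039). These genes are close copies whose reads may be split. In photoreceptors, 20 of 60 tested members were higher and 15 lower (33.3% and 25%, against 18.7% and 17.9% of all genes), and the median log2 fold change over the 60 was 0.14. opn1mw1, a green cone opsin, was at 154, 166 and 185 CPM in the non-scoliotic fish and at 39.6, 48.8 and 57.5 CPM in the heterozygotes (log2 fold change 1.79, SE 0.16, edgeR adjusted p = 0.00055). guca1e, a guanylate cyclase activator of photoreceptors, was at 35.7, 36.5 and 36.5 CPM in the non-scoliotic fish and at 7.699, 7.45 and 7.07 CPM in the heterozygotes (log2 fold change 2.29, SE 0.10, edgeR adjusted p = 5.9e-05). arr3b, a cone arrestin, was lower, at 7.89, 8.83 and 10.5 CPM in the non-scoliotic fish and at 64.1, 62.8 and 62.6 CPM in the heterozygotes (log2 fold change -2.80, SE 0.13, edgeR adjusted p = 8.5e-05), as was pde6c, the cone phosphodiesterase (-1.49). Neuronal genes were near the background, with 10 of 45 tested members higher and 6 lower, and a median log2 fold change of 0.03. The higher count was 6 without heterozygote 1. The glial genes gave 2 of 27 tested members higher and 8 lower, and a median log2 fold change of -0.13, and the lower count was 3, 5, 5 and 4 without heterozygote 1, heterozygote 2, non-scoliotic fish 2 and non-scoliotic fish 3. Their summed CPM was 1772, 1935 and 2013 in non-scoliotic fish and 2409, 2303 and 2134 in heterozygotes. AB fish, at 1821, 1803 and 1848, were near the non-scoliotic fish. mbpa, myelin basic protein, was at 365, 385 and 361 CPM in the non-scoliotic fish and at 664, 584 and 510.2 CPM in the heterozygotes (log2 fold change -0.66, SE 0.13, edgeR adjusted p = 0.0074).

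Skin and pigment genes shared no single direction. Of epidermal genes other than keratins, 20 of 49 tested members were higher and 8 lower, and the median log2 fold change over the 49 was 0.41. grhl3, a factor of the skin barrier, was at 13.4, 20.6 and 14.7 CPM in the non-scoliotic fish and at 4.89, 4.76 and 3.73 CPM in the heterozygotes (log2 fold change 1.86, SE 0.21, edgeR adjusted p = 0.0011). anxa1a was lower (-1.16). Of pigment cell genes, 3 of 37 tested members were higher and 9 lower, and the median log2 fold change over the 37 was -0.04. The higher count was 0 without non-scoliotic fish 3 or heterozygotes 1 or 3, and 1 without non-scoliotic fish 2 or heterozygote 2, with total counts or with the replicate block. A lower member was trpm1b of melanophores, at 18.9, 18.8 and 16.9 CPM in the non-scoliotic fish and at 42.1, 43.6 and 37.2 CPM in the heterozygotes (log2 fold change -1.17, SE 0.11, edgeR adjusted p = 0.00059). Interferon and antigen presentation genes gave 16 of 55 tested members higher and 6 lower, and a median log2 fold change of 0.07, with gbp1, an interferon-induced GTPase, at 25.04, 24.4 and 23.1 CPM in the non-scoliotic fish and at 6.29, 8.09 and 7.45 CPM in the heterozygotes (log2 fold change 1.73, SE 0.13, edgeR adjusted p = 0.00031). The higher count of that list was 10 without heterozygote 1, and the lower count 3 without heterozygote 1, heterozygote 2 or non-scoliotic fish 3. Its shares were 29.1% higher and 10.9% lower, against 18.7% and 17.9% of all genes. Of the interferon and antigen presentation list, 7 genes are also in the proteasome list, so the counts of these lists are not separate. Of pituitary, growth hormone and IGF genes, 8 of 45 tested members were higher and 6 lower, and the median log2 fold change over the 45 was -0.05, shares at or under the 18.7% and 17.9% of all genes. Single members are given as values. gh1, growth hormone, was at 20.7, 16.02 and 17.4 CPM in the non-scoliotic fish and at 36.4, 45.5 and 27.4 CPM in the heterozygotes (log2 fold change -1.02, SE 0.20, edgeR adjusted p = 0.0081). tg, the thyroid hormone precursor, was higher, at 63.6, 97.5 and 72.98 CPM in the non-scoliotic fish and at 28.5, 24.2 and 31.3 CPM in the heterozygotes (log2 fold change 1.48, SE 0.19, edgeR adjusted p = 0.0016).

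**Figure D4:**
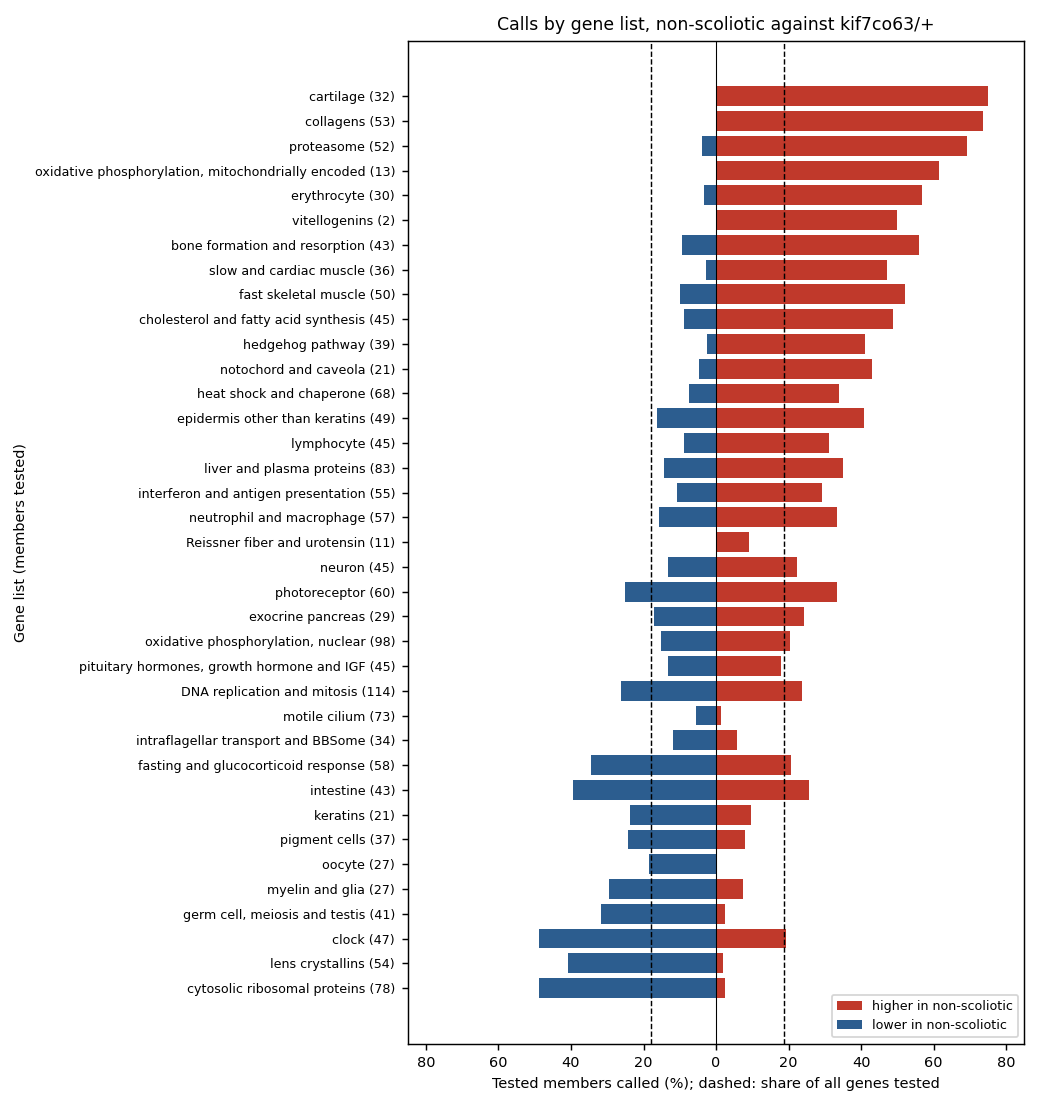
Share of tested members called higher (right) and lower (left) in non-scoliotic fish for each of 37 gene lists, in percent, with dashed lines at the 18.7% and 17.9% of all 22800 genes. Collagens, cartilage and proteasome extend furthest to the right, and cytosolic ribosomal proteins and clock genes furthest to the left.

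Keratins shared no direction, with 2 of 21 tested members higher and 5 lower, and a median log2 fold change of 0.03. One of the 2 higher members, krtcap2, is no keratin and was taken by its name. Among the 5 lower ones, krt4, zgc:158846 and another keratin lie together between 39 and 40 Mb of chromosome 6, in a window described below. krt4, a type II keratin, was at 1.76, 1.71 and 3.15 CPM in the non-scoliotic fish and at 521, 240.4 and 272 CPM in the heterozygotes (log2 fold change -7.29, SE 0.47, edgeR adjusted p = 0.00019). The neighbouring keratin zgc:158846 was at 0.696, 0.357 and 0.457 CPM in the non-scoliotic fish and at 99.6, 94.7 and 31.8 CPM in the heterozygotes (log2 fold change -7.20, SE 0.57, edgeR adjusted p = 0.00037). Scoliotic homozygotes had 347, 400.0 and 399.8 CPM of krt4 and AB fish 405, 353 and 339. The paper reports that RT-qPCR, run on the same RNA, did not reflect the krt4 and zgc:158846 difference between scoliotic and non-scoliotic homozygotes. Its RT-qPCR of non-scoliotic homozygotes against AB fish did not show either gene as lower, unlike the read counts. By pankeratin staining of tissue sections, the paper reports more keratin in scoliotic than in non-scoliotic homozygotes. No keratin RT-qPCR of heterozygotes is given there. Why RT-qPCR and read counts differed was not tested.

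krt4 stood among many large differences that lay side by side in the genome. A called log2 fold change of at least 3 in size was found for 526 genes (2.31% of those tested), and 133 of these fell in 14 windows of 1 Mb with at least 5 each. In 12 windows all were lower in non-scoliotic fish. The window of chromosome 6 from 39 to 40 Mb held 22 of them among 28 tested genes, myl6 and krt4 included. myl6, a nonmuscle myosin light chain, had 1, 3 and 3 reads in non-scoliotic fish and 1726, 1002 and 1304 in heterozygotes, at least 468-fold lower, against 482, 682 and 503 reads in scoliotic homozygotes. On chromosome 5 from 28 to 29 Mb, 19 of 24 were lower, with vamp8, of the endosomal SNAREs, at 0.0444, 0.0357 and 0.08698 CPM in the non-scoliotic fish and at 21.2, 11.5 and 15.03 CPM in the heterozygotes (log2 fold change -8.16, SE 0.40, edgeR adjusted p = 9.6e-05) and 6.93, 6.62 and 0.0664 CPM in scoliotic fish.

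Both windows that were higher lay on chromosome 25, which held 35 of the 90 large higher genes. Between 21 and 22 Mb, 13 of 17 tested genes were higher by that measure. wnk1a, a kinase of ion transport, was at 74.2, 84.4 and 79.05 CPM in the non-scoliotic fish and at 0.547, 0.398 and 0.544 CPM in the heterozygotes (log2 fold change 7.31, SE 0.17, edgeR adjusted p = 8.3e-06), the smallest p of all genes on the higher side. dusp6, a phosphatase of ERK elsewhere on the chromosome, was at 25.98, 28.2 and 23.2 CPM in the non-scoliotic fish and at 1.64, 1.59 and 2.05 CPM in the heterozygotes (log2 fold change 3.87, SE 0.16, edgeR adjusted p = 5.7e-05). In scoliotic homozygotes, wnk1a was at 0.751, 71.96 and 0.907 CPM, so scoliotic fish 2 was alone in having the level of the non-scoliotic fish. Between 10 and 11 Mb, 9 of 22 were higher, among them mhc1lja, an MHC class I gene of the L lineage. It had 178, 157 and 134 reads in non-scoliotic fish, 0, 0 and 0 in heterozygotes and 74, 0 and 94 in scoliotic fish, at least 49.2-fold higher. Here scoliotic fish 1 and 3, not 2, resembled the non-scoliotic fish.

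**Figure D5:**
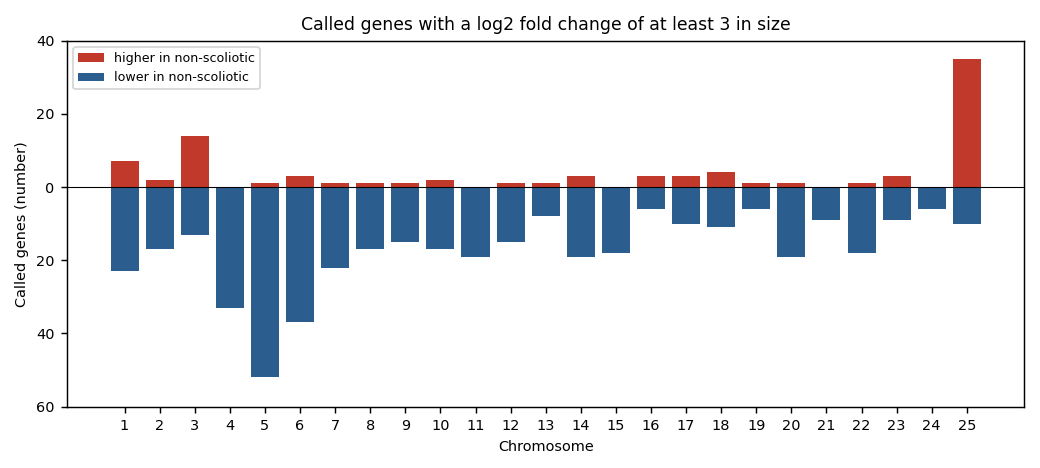
Number of called genes with a log2 fold change of at least 3 in size on each of the 25 chromosomes, higher in non-scoliotic fish (up) or lower (down). Chromosome 25 holds 35 higher genes, and chromosomes 5 and 6 hold 52 and 37 lower ones.

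Reads of some genes were present in only 1 of the 2 groups. With at most 3 reads in each fish of a group and at least 100 in each of the other, 13 genes were detected only in non-scoliotic fish, 11 of them on chromosome 25, and 34 only in heterozygotes. Of the 13, 11 were at or under 3 reads in all 3 AB fish, and 9, 8 and 9 were above 3 reads in scoliotic fish 1, 2 and 3. Of the 34, 22 were also at or under 3 reads in all 3 scoliotic homozygotes, and 29 were above 3 reads in all 3 AB fish. zgc:171776 had 0, 0 and 0 reads in non-scoliotic fish and 7992, 8654 and 11024 in heterozygotes, at least 3186-fold lower. ctsba, a cathepsin B, had 0, 0 and 0 and 1842, 7907 and 1266 reads in the same order, and among AB fish 0, 21166 and 0, so AB fish differed from each other too. itk, a kinase of T cells, had 1, 0 and 1 and 228, 197 and 238 reads.

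Around kif7, within 2 Mb on each side, 51 genes were tested and 17 were called, 5 higher and 12 lower. The total share is near the 36.6% of all genes, of which 18.7% were higher and 17.9% lower. Whether the split of 5 and 12 differs from that of all genes was not tested, and it rests on few genes. Of the 51, 3 had a called log2 fold change of at least 3 in size, against 526 of all 22800 genes tested (2.31%), and this was not tested either. si:ch73-119p20.1, on chromosome 7 from 13375565 to 13381129, had 1, 1 and 3 reads in non-scoliotic fish, 5, 1 and 1 in scoliotic homozygotes and 985, 825 and 857 in heterozygotes, at least 309-fold lower. In the pools at 4 dpf it had 8 and 14 reads in homozygotes and 1396 and 1281 in heterozygotes, so this gene was low in homozygotes at both ages. ambp, on chromosome 10, the precursor of a plasma protease inhibitor, was at 1.29, 1.12 and 1.04 CPM in the non-scoliotic fish and at 92.6, 110.3 and 79.5 CPM in the heterozygotes (log2 fold change -6.35, SE 0.19, edgeR adjusted p = 2.2e-05) and had 32 and 133 against 2085 and 1808 reads at 4 dpf.

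The same genotypes were also compared at 4 dpf. kif7co63/co63 and kif7co63/+ pools, 2 each, differed in 8 of 22349 genes (0.0358%; 0.00895% higher and 0.0268% lower in homozygotes) by edgeR, with 1173 at an unadjusted p under 0.05. With 2 pools per group the errors were larger than at 6 wpf (for smo an SE of 0.30 against 0.10), so the low count does not show that the genotypes were alike. A test of the difference of the homozygote effect between 6 wpf and 4 dpf, over 10 libraries, called 1230 of 24142 genes (5.09%), 543 (2.25%) with a more positive and 687 (2.85%) with a more negative effect at 6 wpf, and 5683 at an unadjusted p under 0.05. That count was 3074 with DESeq2, and 707, 469, 343, 519 and 448 without non-scoliotic fish 2 or 3 or heterozygotes 1, 2 or 3, and the list counts that follow rest on it. Of the clock list, 6 of 47 members had a more positive and 17 a more negative effect at 6 wpf, and of the collagens 14 of 53 a more positive one. The non-scoliotic libraries are single fish and the 4 dpf libraries pools, so age and pooling cannot be told apart. The 4 dpf fish were not scored for curvature, while the 6 wpf homozygotes are those without a curve, which cannot be separated from age either. The effect is homozygotes minus heterozygotes, so a shift in the heterozygotes enters it as well.

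Genes that differed between AB juveniles and AB larvae lay on both sides, and those higher in AB juveniles were more frequent on the lower side. The juveniles are single fish and the larvae are pools, so age and pooling cannot be told apart here either. AB fish at 6 wpf and AB pools at 4 dpf differed in 58.6% of 23474 genes, 30.3% higher and 28.2% lower at 6 wpf. Of 22381 genes tested in both comparisons, 30.9% were higher in AB at 6 wpf than at 4 dpf and 29.0% lower. Among genes lower in non-scoliotic fish, 44.7% were higher in AB juveniles and 23.9% in AB larvae, against 27.4% and 30.3% of the genes not called. Among genes higher in non-scoliotic fish the shares were 29.1% and 29.6%. AB juveniles also had the highest oocyte sums at 6 wpf (9147, 9864 and 10186 CPM), and the part of gonad content in these shares was not tested.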

How the data were processed

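RNA of whole zebrafish was sequenced from single fish at 6 wpf (3 per group) and pools of 20 larvae at 4 dpf (2 per group). Reads were aligned to GRCz11 with HISAT2, and the authors deposited raw counts per gene. fastp, StringTie, featureCounts and DESeq2 are named in the submitters' processing notes without a role, and strandedness is not given in the sources used here. A second deposited table, in which the authors compared scoliotic fish with heterozygotes (fold changes, p-values and 18 per-sample columns), was not used.

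Counts were tested with edgeR 4.0.16 in R 4.3.3 (TMM scaling; genes kept by filterByExpr at its thresholds of 10 reads, and 15 in total) on the 6 libraries compared. DESeq2 1.42.0 and other settings served as alternatives, and the fitting code was tested on simulated data. Library totals were 49434684 to 69698533 reads in the 6 fish. Replicate libraries of a group differed beyond counting noise. Nothing in the labels says that fish of a group came from separate clutches, so p-values measure the spread between these fish.

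The 37 gene lists and the rule for named genes were chosen with earlier results of these data known. The rule took the 12 genes with the smallest p in each direction (log2 fold change of at least 1 in size, at least 5 CPM in the higher group, no overlap), the 8 with the largest difference in CPM, up to 4 called members per list and direction, kif7, ptch1, gli1 and krt4, up to 5 genes per direction detected in 1 group only, and up to 3 genes per window of 1 Mb. Genes outside the rule are marked in the text. Genes with close copies (keratins, crystallins, opsins, myosins, chitinases) are uncertain where counting split their reads.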

Additional observations from a re-analysis of the deposited data

Results flagged for a closer look

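The homozygote effect, kif7co63/co63 minus kif7co63/+, was compared between single non-scoliotic fish at 6 wpf and pools of larvae at 4 dpf through an interaction term in edgeR, and it differed for 1230 genes at an adjusted p under 0.05. Of these, 1146 also differed between non-scoliotic fish and heterozygotes at 6 wpf, where 36.6% of all genes tested were called. Both tests use the same libraries at 6 wpf, so this overlap is built in and supports nothing by itself. The genes named in the report whose homozygote effect differed between the ages are given here with the size of that difference on the log2 scale. A more positive effect at 6 wpf was found for dzip1 (4.92), rorcb (3.50), nfil3-5 (3.56), clocka (1.91), cry1bb (1.83), foxo3b (1.47), scd (3.36), elovl6 (3.49), acaca (2.52), fasn (1.82), psmd11b (1.90), psme4b (1.55), hsp90aa1.1 (2.68), unc45b (2.01), col11a2 (2.07), col5a1 (1.14), acanb (1.64), matn1 (2.58), col2a1a (2.43), mmp14b (1.16), bmp1a (1.37), sp7 (0.94), lamb1a (1.41), sptb (1.13), ccne2 (1.64), guca1e (1.92), grhl3 (2.15), gbp1 (2.56), tg (2.39) and dusp6 (4.05). A more negative one was found for bbs12 (-1.38), enkur (-1.90), nr1d1 (-7.42), per3 (-4.13), per1b (-3.67), nr1d2b (-2.62), dbpa (-2.58), per1a (-5.22), ciarta (-4.98), fosb (-5.52), igfbp1a (-2.32), g6pca.2 (-2.82), plin2 (-8.83), hsf2 (-3.08), gmnn (-3.51), f3b (-2.99), crygm5 (-2.41), arr3b (-4.06), pde6c (-1.79), krt4 (-5.95), zgc:158846 (-7.18), myl6 (-7.78) and zgc:171776 (-20.27). For zgc:171776, plin2, myl6 and dzip1 a group at 6 wpf was at or under 3 reads per fish, so the fitted size depends on the prior count and is no bound. At 4 dpf zgc:171776 had 0 and 4 reads in homozygote pools and 0 and 0 in heterozygote pools, so no effect could be measured there. The homozygote pools disagreed for myl6, with 1018 and 38 reads against 1502 and 1352 in heterozygotes. Age, pooling and the choice of homozygotes without a curve at 6 wpf cannot be told apart in this interaction contrast. A shift in the heterozygotes enters it as much as one in the homozygotes. AB fish at 6 wpf sat by the non-scoliotic fish for nr1d1 and per3, between the groups for rorcb and clocka, and below the heterozygotes for mmp14b. Sampling time and the breeding of the sequenced heterozygotes are not given in the sources used here, and their part was not tested.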

How the results depend on the processing

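The 8348 calls became 8362 with RLE size factors, 8461 with total counts, 9503 with DESeq2, 8119 with no filter, 8094 with a minimum mean of 1 CPM and 9197 in a fit of all 12 fish. Leaving out 1 fish at a time gave 5296 to 7870 calls, the lowest without heterozygote 1, and 5210 of those 5296 were among the 8348. The replicate block gave 7506 calls. The replicate numbers are not known to pair fish, and same-numbered deviations correlated at -0.02, 0.17 and 0.05, with fish 2 alone closest to its own number in both groups. For the difference of the homozygote effect between 6 wpf and 4 dpf, the 1230 calls became 3074 with DESeq2, 1347 with a minimum mean of 1 CPM, and 343 to 1146 with 1 fish left out. Of the named genes, 111 were called, and none of these changed sign under the alternatives run. kif7 (ENSDARG00000033099), not called, had a log2 fold change of -0.0854 with total counts, and of -0.0443 to 0.183 with 1 fish left out, below 0 without non-scoliotic fish 3 (-0.0443), heterozygote 1 (-0.0346) or heterozygote 2 (-0.0407). ptch1 was called by DESeq2 alone (adjusted p = 0.046). List medians near 0 turned sign. With total counts they were -0.08 for keratins, -0.07 for neuronal genes, -0.03 for interferon genes and -0.06 for Reissner fiber and urotensin genes. Without non-scoliotic fish 3 they were -0.25 for keratins and -0.02 for neuronal genes, without non-scoliotic fish 2 -0.02 for exocrine pancreas and 0.01 for DNA replication, without non-scoliotic fish 1 -0.10 for interferon genes, and without heterozygote 3 0.11 for DNA replication, 0.05 for intraflagellar transport and -0.03 for keratins. That of the 2 vitellogenins was -0.98 in the fit of all 12 fish, and that of clock genes -0.67 at a minimum mean of 1 CPM. Without genes named krtcap, an alternative chosen after seeing the data, 1 of 20 keratins was higher and 5 lower. The cause of these shifts was not tested. Depth was at least 49434684 reads per fish, and with 3 fish per group the spread between fish sets the precision.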
